A study of Mus musculus with 8 samples.

Results

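The receptors and G proteins that position B cells within a lymphoid follicle were followed across the light and dark zones of the mouse germinal centre. The group held 9 genes of 18193 with a probe set of their own on the array: the oxysterol receptor gene Gpr183, the sphingosine-1-phosphate (S1P) receptor genes S1pr1, S1pr2 and S1pr4, the G protein alpha subunit genes Gna13, Gna12 and Gnai2, the exchange factor gene Arhgef1 and the cannabinoid receptor gene Cnr2. The genes were given by name, and every probe set annotated with 1 of these symbols alone was read, which gave 23 probe sets of 45037. A probe set is a group of short array probes against 1 transcript.

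Germinal centre B cells came from lymph nodes of C57BL/6 mice, harvested 12 days after subcutaneous NP-KLH (a hapten on a carrier protein) in alum, and were gated as B220+CD38-CD95+. There were 4 arrays of light zone cells and 4 of dark zone cells, called biological replicates in the labels, all from the same strain, antigen and day. The number of mice behind each array is not given in the sources used here, so p-values measure the spread between these samples, which may be partly technical. Means are given as mean ± SD of the 4 arrays of a zone (n = 4), light zone first unless stated. The labels give the light zone gate as CXCR4hi/CD83lo and the dark zone gate as CXCR4lo/CD83hi, the reverse of common usage. The transcripts went the other way: the mean intensity of Cd83 was 7381 ± 195 in the light and 1478 ± 111 in the dark zone, and that of Cxcr4 was 804 ± 39.3 and 1571 ± 125. Groups were taken from the sample titles, and every direction below is between arrays titled dark zone and arrays titled light zone.

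GPR183, also called EBI2, responds to dihydroxylated cholesterols and draws activated B cells to the edge of the follicle, and germinal centre B cells are known for carrying little of it. S1PR2 works in the opposite sense: through the alpha subunits of the G12 family and the exchange factor ARHGEF1 it damps migration and holds cells in the centre of the follicle, where S1P is low. S1PR1 signals through Gi proteins and promotes exit into lymph and blood, where S1P is high. CNR2 is a Gi-coupled receptor for endocannabinoids.

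Across the series, array medians lay between 27.3 and 28.1 in the deposited intensity, and no pair of arrays was identical. Intensities rank one probe set across arrays and are not compared here between probe sets. Of 10 listed B cell and germinal centre markers, 8 had a probe set and all 8 were tested. Of these, Fas (-0.23) was higher in the light zone, Gcsam (1.48) in the dark zone and 6 did not pass, with Ms4a1 at 10429 ± 146 (light) and 10055 ± 216 (dark). These were read from the brightest probe set of each gene. A dimmer probe set did pass for Bcl6 (0.65) and Pax5 (0.58), higher in the dark zone, and for Ms4a1 (-0.35), higher in the light zone. Markers of T, NK, myeloid, endothelial and stromal cells were often dim. Of 4 NK cell markers with a probe set none reached the filter, and 4 of 7 T cell markers, 4 of 8 myeloid markers and 5 of 8 endothelial and stromal markers were below it. Of the 3 tested T cell markers, Lat was higher in the light zone (-0.52), and Cd3e (-0.05) and Cd4 (0.16) did not pass. Summed intensities of the T cell list ranged from 234 to 257 in light zone and 213 to 229 in dark zone arrays, those of the myeloid list from 231 to 282 and 314 to 1042, and those of the endothelial and stromal list from 249 to 322 and 242 to 264. The 4 tested myeloid markers went different ways: Lyz2 was at 52.6 ± 24.4 (light) and 470 ± 284 (dark), Csf1r was also higher in the dark zone (0.40), Cd68 was higher in the light zone (-0.40) and Adgre1 (0.07) did not pass. Of 5 plasma cell markers, Irf4 (-2.03) and Prdm1 (-1.37) were higher in light zone arrays. Sdc1 and Jchain did not pass and 1 was below the filter. A dimmer probe set of Sdc1 did pass (-0.63), higher in the light zone. List sums were 8053 to 8801 (light) and 8919 to 9429 (dark), mostly from Jchain, at 8192 ± 349 and 9095 ± 219. Several member genes are also used by these cells, and the part of such cells in the results was not tested.

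The stretches before the start sites are shown for Gpr183 and Cnr2, which had the largest light zone excess of the 9 genes, for the G12 family pair Gna13 and Gna12, and for S1pr2, the receptor of confinement. RefSeq (GRCm38.p6) windows were matched for 7 of the 9 genes, 9 windows in all because Arhgef1 and Cnr2 have a pair of starts each. The 250 bases before the start are printed 5′ to 3′ on the gene's strand: Gpr183 at chr14:121965194-121965443 (minus strand), Cnr2 at chr4:135894939-135895188 (plus strand, the upstream start), S1pr2 at chr9:20976794-20977043 (minus strand), Gna13 at chr11:109362544-109362793 (plus strand) and Gna12 at chr5:140830432-140830681 (minus strand). Capitals mark matches, on either strand, to the TATA box TATAAA, the CCAAT box CCAAT, the GC box GGGCGG, the E-box CACGTG, the cAMP response element TGACGTCA, the octamer ATGCAAAT or the FOXO motif GTAAACA.
Gpr183: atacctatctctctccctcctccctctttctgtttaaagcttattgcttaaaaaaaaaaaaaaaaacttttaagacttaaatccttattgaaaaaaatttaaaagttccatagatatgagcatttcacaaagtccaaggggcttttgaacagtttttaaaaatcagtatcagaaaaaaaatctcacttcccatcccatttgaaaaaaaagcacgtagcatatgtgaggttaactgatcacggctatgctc
Cnr2: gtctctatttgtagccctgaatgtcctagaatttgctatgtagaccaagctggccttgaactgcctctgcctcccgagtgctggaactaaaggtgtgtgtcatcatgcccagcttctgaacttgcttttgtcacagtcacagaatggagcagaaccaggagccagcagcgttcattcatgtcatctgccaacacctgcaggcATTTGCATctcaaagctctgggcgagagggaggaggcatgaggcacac
S1pr2: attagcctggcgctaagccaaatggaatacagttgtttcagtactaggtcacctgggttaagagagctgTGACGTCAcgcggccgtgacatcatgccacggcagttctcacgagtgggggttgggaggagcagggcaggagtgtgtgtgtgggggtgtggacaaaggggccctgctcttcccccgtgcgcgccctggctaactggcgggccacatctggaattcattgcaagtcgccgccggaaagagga
Gna13: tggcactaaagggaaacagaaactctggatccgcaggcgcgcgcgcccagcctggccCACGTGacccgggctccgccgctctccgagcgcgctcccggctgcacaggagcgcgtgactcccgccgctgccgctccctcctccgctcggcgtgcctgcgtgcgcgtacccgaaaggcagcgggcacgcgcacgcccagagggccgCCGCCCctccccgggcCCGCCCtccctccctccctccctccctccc
Gna12: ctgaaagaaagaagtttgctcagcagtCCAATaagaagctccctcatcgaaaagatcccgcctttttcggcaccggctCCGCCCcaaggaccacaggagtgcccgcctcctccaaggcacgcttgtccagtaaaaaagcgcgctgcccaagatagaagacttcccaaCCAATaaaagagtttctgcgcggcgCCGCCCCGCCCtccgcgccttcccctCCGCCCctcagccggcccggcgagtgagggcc

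The windows differed in base composition. That of Gpr183 held no match and was 32% G and C, against 76% for Gna13, 61.2% for Gna12, 59.2% for S1pr2 and 51.6% for Cnr2, with a median of 52.4% over all 32851 windows in the table. Gna13 and Gna12 both held GC boxes, a pair in Gna13 and 4 in Gna12, of which 2 overlap by a base. A GC box was present in 32.7% of all windows. Gna13 also had an E-box (6.02% of windows), S1pr2 a cAMP response element (1.55% of windows), and Cnr2 an octamer read on the other strand (1.6% of windows). Gna12 held 2 CCAAT boxes, a motif in 33.8% of windows. No window of the 9 held the TATA box (12.4% of all windows) or the FOXO motif (3.17%). These matches describe letters in a window and say nothing of binding.

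The 9 genes split between the zones. Dark zone and light zone were compared with limma over all probe sets whose mean reached the median of probe set means, an intensity of 27.8, and a gene was read from its brightest probe set. All 9 genes were bright enough to test. Gpr183, Cnr2, S1pr1 and Gnai2 had their higher level in the light zone (4 of 9, against 23.6% of the 10547 genes tested), and Gna12, S1pr4, Gna13 and S1pr2 were higher in the dark zone (4 of 9, against 17.5%). Arhgef1 did not pass. In all, 8 of 9 passed against 41.1% of genes, and the groups did not overlap in 8 of 9 against 41.3%; these counts describe a chosen list and were not tested. The median of the 9 differences (dark zone minus light zone, log2) was -0.18, and it was -0.0057 over all genes tested. The sizes differed widely, as the plot of the 9 genes among all genes tested shows: only 0.313% of genes had a larger absolute difference than Gpr183, 5.88% a larger one than Cnr2 and 9.19% a larger one than Gna12, while 42.5% had a larger one than Gnai2.

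**Figure D1:**
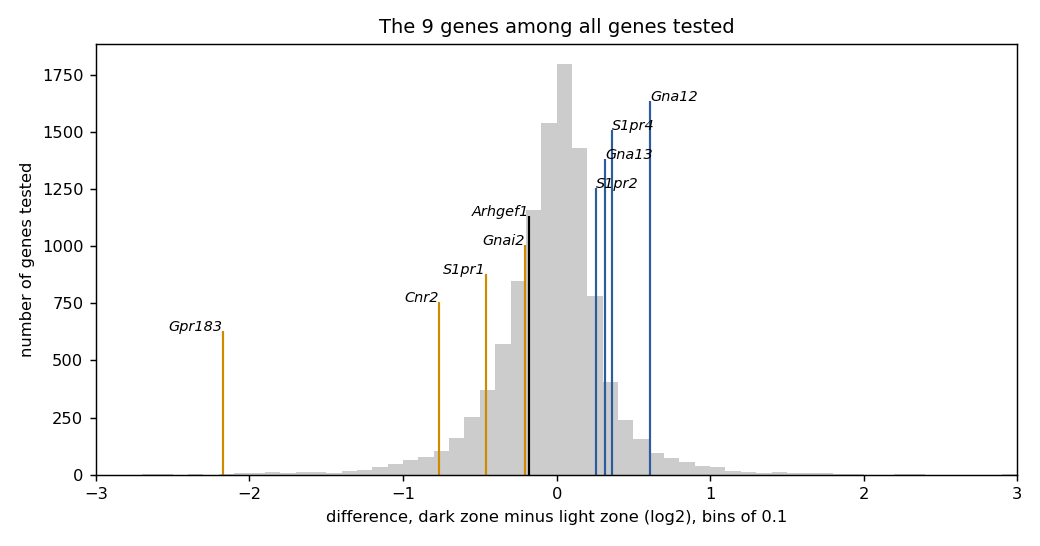
Differences between zones of the brightest probe set of every gene tested (grey bars: number of genes in bins of 0.1 log2; the axis is limited to -3 to 3), with a vertical line at each of the 9 genes (orange: higher in the light zone; blue: higher in the dark zone; black: did not pass; line heights only separate the names). Gpr183 lies at -2.17, far out in the light zone tail, and the other 8 lie between -0.76 and 0.61.

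At the level of probe sets, 20 of the 23 were tested, 5 gave a higher light zone level, 11 a higher dark zone level and 4 did not pass; 40.8% of the 22519 probe sets tested passed. The other 3, all of Gna12, were below the filter. Probe sets of a gene are not independent measurements, since they read the same transcript.

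**Figure D2:**
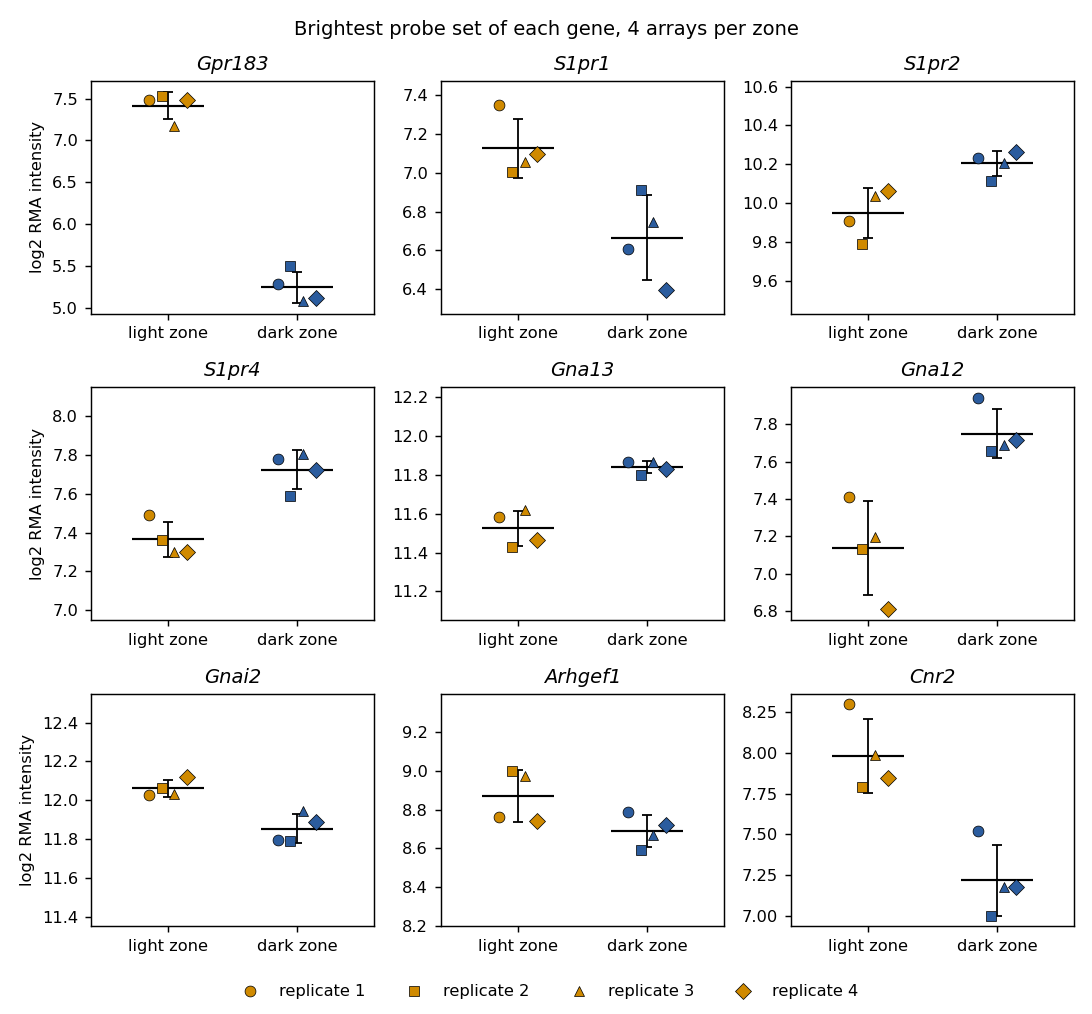
Log2 intensity of the brightest probe set of each gene in every array (marker shape: replicate number; long bar: zone mean; error bar: SD of 4 arrays; each panel has its own scale, at least 1.2 log2 units tall). The zones are separate in every panel but that of Arhgef1.

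Gpr183 stood apart from the other members. Its brightest probe set (1437356_at) read 179.6, 185, 144 and 179 in light zone replicates 1 to 4 and 39.0, 45.0, 33.8 and 34.6 in dark zone replicates 1 to 4. The lowest light zone array, replicate 3, was still far above the highest dark zone array, replicate 2. The difference was -2.17 (SE 0.11, limma adjusted p = 5.28e-08), a 4.51-fold higher level in the light zone. The second probe set (1457691_at), of another source sequence, read 95.02, 94.8, 79.9 and 83.4 against 39.8, 35.4, 35.3 and 31.5, a difference of -1.31 (SE 0.09, limma adjusted p = 4.9e-07). Both probe sets put Gpr183 in the dark zone a little above the filter and well above it in the light zone. In bulk samples such as these, fewer cells that express a gene and less RNA per cell cannot be told apart. Of 10547 genes tested, 20 had a larger excess in the light zone.

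Of 4 listed genes that make or destroy the oxysterol ligand, only 2 were bright enough to test. Ch25h and Cyp7b1, the hydroxylases that make it, were below the filter in the arrays. Hsd3b7, the enzyme that inactivates it, was at 36.1 ± 1.58 (light) and 35.2 ± 1.79 (dark), and the sterol hydroxylase gene Cyp27a1 was at 110.5 ± 6.78 and 119 ± 3.82. Neither of the 2 tested genes passed in limma, and neither had an unadjusted p under 0.05.

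Markers of naive and follicular B cells moved with Gpr183. Of 6 listed, 4 had a probe set, 3 were tested and all 3 were higher in the light zone: the IgE receptor gene Fcer2a (-2.06, SE 0.06), the complement receptor gene Cr2 (-0.98, SE 0.09) and the adaptor gene Bank1 (-0.71, SE 0.10). The chemokine receptor gene Ccr7, also on the list, was below the filter on its mean over all arrays, at 35.7 ± 7.82 (light) and 14.2 ± 2.65 (dark) with no overlap. The list summed to 6779 to 7663 in light zone and 2915 to 3860 in dark zone arrays. The sort took CD38-CD95+ cells, whereas naive B cells carry CD38 and little CD95. The part of such cells in the difference of Gpr183, Cnr2 and S1pr1 was not tested.

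The S1P receptor genes went in opposite directions. S1pr1, the receptor of egress, read 163, 128, 133 and 137 in light zone replicates 1 to 4 and 97.4, 120.3, 107 and 84.3 in dark zone replicates 1 to 4. The groups did not overlap, although light zone replicate 2 and dark zone replicate 2 came close. The difference was -0.46 (SE 0.11, limma adjusted p = 0.0061), a 1.38-fold higher level in the light zone.

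S1pr2, the receptor of confinement, read 959, 884, 1051 and 1067 in light zone arrays and 1203, 1108, 1179 and 1230.5 in dark zone arrays with its brighter probe set (1428176_at). Every dark zone array was above every light zone array, with light zone replicate 4 and dark zone replicate 2 the closest. The difference was 0.26 (SE 0.08, limma adjusted p = 0.017), a 1.19-fold higher level in the dark zone. The dimmer probe set (1447880_x_at), whose suffix marks probes that can bind other transcripts, read 486, 520, 483 and 572 against 506, 488, 542 and 569. Those groups overlapped and the difference was 0.03 (SE 0.08, 95% interval -0.14 to 0.20, limma adjusted p = 0.78). With both averaged the call was lost, at 0.14 (limma adjusted p = 0.075; 0.0065 to 0.075 over all alternatives).

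S1pr4, an S1P receptor of blood cells, had 1 probe set. It read 180, 165, 158 and 158 in light zone arrays and 220, 192, 224 and 211 in dark zone arrays, with no overlap. The difference was 0.36 (SE 0.07, limma adjusted p = 0.0021), 1.28-fold higher in the dark zone.

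The differences of the S1P receptors were compared with each other by the log2 ratio of a pair in each array, over 70 arrangements of 4 against 4 arrays, in a family of 3 pairs. The ratio of S1pr2 to S1pr1 was higher in the dark zone by 0.72 (SE 0.17; two-sided exact permutation p = 0.0286, the smallest this design can give; 0.0857 adjusted over 3 pairs). The ratio of S1pr4 to S1pr2 differed by 0.10 (SE 0.10; exact permutation p = 0.371, adjusted 0.371). Neither passed after adjustment, and with 3 pairs a single pair at the smallest p cannot fall below 0.0857. The S1pr2 to S1pr1 ratio passed (exact permutation adjusted p = 0.0429) with probe sets averaged (0.60) and after quantile normalization (0.65), where another pair also reached the smallest p.

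The closest relatives of these receptors were on a list of 20 lipid and nucleotide receptor genes, of which 18 had a probe set and 9 were tested. Of the 9, 6 were higher in the light zone, against 23.6% of all genes tested. By limma, 0 were higher in the dark zone, against 17.5%, and 0 had an unadjusted p under 0.05 in that direction. The median was -0.64. S1pr3, another S1P receptor gene, had the largest difference of the list, close in size to that of Gpr183. Its brightest probe set read 1941 ± 115 (light) and 428 ± 38.9 (dark), and differed by -2.18 (SE 0.08, limma adjusted p = 6.7e-09). A second tested probe set gave -2.10 (SE 0.12), and the remaining one was below the filter. The proton-sensing receptor gene Gpr65 followed at -1.92 (SE 0.17), then the lysophosphatidylserine receptor genes Gpr174 at -1.08 (SE 0.20) and P2ry10 at -0.71 (SE 0.10). S1pr5, the S1P receptor gene of NK cells, was below the filter.

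Of 11 genes for making, exporting and destroying S1P, 7 were tested and 1 passed, in the light zone direction (23.6% of all genes tested). By limma 0 were higher in the dark zone (17.5% of all genes) and 1 had an unadjusted p under 0.05 there. With probe sets averaged, 3 were higher in the dark zone: Sgpl1 (0.24), Sgpp1 (0.26) and Apom (0.18), the gene of an S1P carrier. Plpp1, a phosphatase that removes the phosphate of lipids including S1P, was at 657 ± 48.3 (light) and 192 ± 9.54 (dark), and differed by -1.77 (SE 0.07, limma adjusted p = 1.4e-08), and a second probe set gave -1.65. Sgpl1, the lyase that degrades S1P, was at 0.23 (SE 0.09, limma adjusted p = 0.052), and passed in 8 of 19 alternatives (adjusted p = 0.012 to 0.137), among them without light zone replicate 1 (0.30, adjusted p = 0.0215) and without dark zone replicate 2 (0.30, adjusted p = 0.021). Sphk2, an S1P-producing kinase, was at -0.17 (SE 0.07) and did not pass, and its relative Sphk1 was below the filter. The phosphatase gene Sgpp1 was at -0.0041 (SE 0.10), while its dimmer tested probe sets gave up to 0.67.

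A list of 5 genes known to act on S1pr1 held 3 with a higher light zone level and 1 with a higher dark zone level, against 23.6% and 17.5% of all genes tested. Klf2, a transcription factor that drives S1pr1, was at 453 ± 90.9 (light) and 117 ± 14.2 (dark) (-1.95, SE 0.13). Cd69, whose protein removes S1PR1 from the surface, was at -2.03 (SE 0.11). Foxo1, which acts upstream of Klf2, went the other way at 0.26 (SE 0.07). Stat3 was at -0.44 (SE 0.07), and the dynamin gene Dnm2 (0.22, SE 0.08, limma adjusted p = 0.0505) did not pass; it passed in 6 of 19 alternatives (adjusted p = 0.0309 to 0.247), of which 1 left out an array, dark zone replicate 3.

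The G12 family of alpha subunits was higher in the dark zone with every tested probe set. Gna13, the subunit through which S1PR2 confines germinal centre B cells, had 7 probe sets, all tested, all called and all without overlap between zones. The brightest (1433749_at) read 3071, 2761, 3148 and 2823 in light zone arrays and 3730.4, 3564, 3739.8 and 3644 in dark zone arrays. The difference was 0.32 (SE 0.07, limma adjusted p = 0.0023), 1.25-fold. This was the smallest of the 7, which ran to 1.15 (SE 0.12, limma adjusted p = 1.62e-05) for 1460317_s_at. That probe set, of a type that can be shared by transcripts, read 201, 144, 180 and 135 against 367, 388, 365 and 323, a 2.21-fold difference. The other 5 lay between 0.37 and 0.66. Of the 7 probe sets, 4 were designed on the same source sequence and they gave 0.46, 0.52, 0.66 and 1.15. The direction was thus shared and the size was not: averaged over the 7 probe sets, the difference of Gna13 was 0.55.

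Gna12, the other member of the family, had 5 probe sets, 2 of them tested. The brightest (1455008_at) read 170.4, 140.4, 147 and 112 in light zone arrays and 245, 202, 206 and 209.8 in dark zone arrays. Replicate 1 was the highest in each zone and light zone replicate 4 the lowest. The zones did not overlap, and the difference was 0.61 (SE 0.12, limma adjusted p = 0.0013), 1.53-fold. The next probe set (1450097_s_at), near the filter, read 34.97, 30.7, 30.2 and 30.2 against 44.7, 44.5, 47.9 and 38.7, a difference of 0.48 (SE 0.08, limma adjusted p = 6.42e-04). Of the 3 dim probe sets, fitted together with all 45037 probe sets of which 21.8% passed, 1 gave 0.34 (SE 0.09, limma adjusted p = 0.012) and the others gave 0.01 and 0.03, with no overlap between zones only in the first. With all 5 averaged the difference was 0.29.

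**Figure D3:**
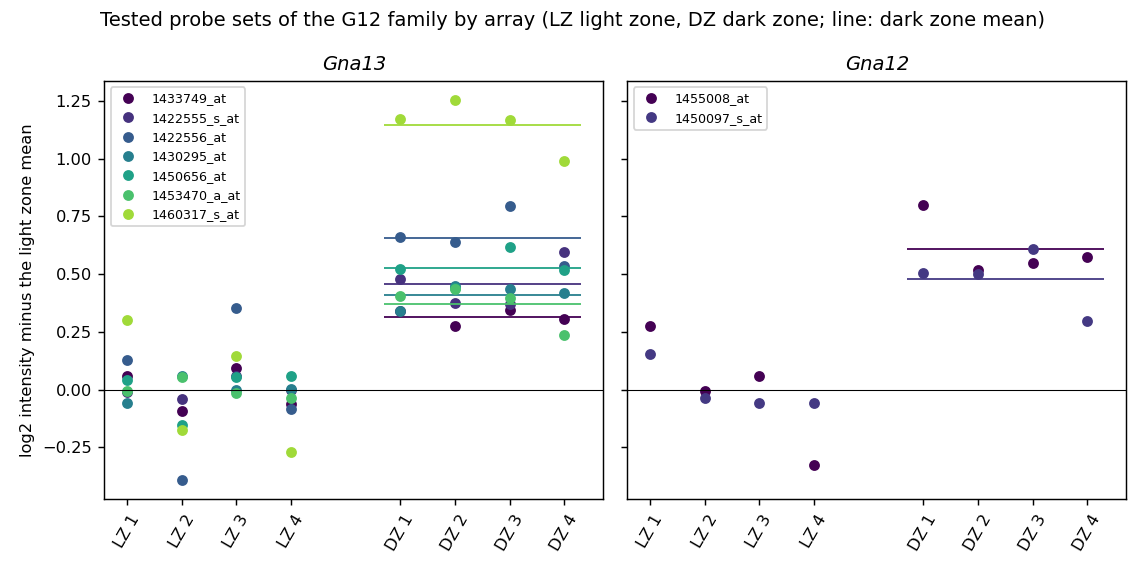
Log2 intensity of each tested probe set of Gna13 (7) and Gna12 (2) in every array, minus that probe set's light zone mean (LZ, light zone; DZ, dark zone; horizontal lines: dark zone means). All dark zone means are above 0, from 0.32 to 1.15 for Gna13 and from 0.48 to 0.61 for Gna12.

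The differences of Gna13 and Gna12 were also compared in the family of 3 pairs. By brightest probe sets, the ratio of Gna13 to Gna12 was lower in the dark zone, by -0.29 (SE 0.12; two-sided exact permutation p = 0.0571, adjusted 0.0857). With the probe sets of each gene averaged it was higher, by 0.26 (exact permutation adjusted p = 0.0429), and after quantile normalization of the brightest it was lower, by -0.32 (exact permutation adjusted p = 0.0429); over the alternatives tested, adjusted p ran from 0.0429 to 0.0857. The Gna12 average took in 3 probe sets below the filter, among them 1439206_at at 0.01 and 1450096_at at 0.03. Which of these genes differed more is thus set by the choice of probe sets.

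Gnai2, the main Gi alpha subunit of lymphocytes and the one through which chemoattractant receptors drive migration, differed little. Its brightest probe set (1435652_a_at) read 4168, 4286, 4192 and 4452 in light zone arrays and 3548, 3545, 3936 and 3783 in dark zone arrays, with no overlap. The difference was -0.21 (SE 0.06, limma adjusted p = 0.020), 1.16-fold. The second probe set (1419449_a_at), aimed at the same gene, read 2247, 1942, 2122 and 1963 against 2246, 2149, 2093 and 2074, which overlapped, and gave 0.05 (SE 0.07, 95% interval -0.10 to 0.20). The call was lost with both averaged (-0.078, limma adjusted p = 0.17), without light zone replicate 4 (adjusted p = 0.056) and without dark zone replicate 2 (adjusted p = 0.056), in a range of 0.0022 to 0.17 over all alternatives.

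Of 22 other G protein subunit genes, 21 had a probe set, 12 were tested, 4 were higher in the dark zone (17.5% of all genes tested) and 2 in the light zone (23.6% of all), with a median of 0.11. Averaging the probe sets of a gene made Gng2 (0.39), Gnaz (0.33) and Gnb1 (0.15) pass with a higher dark zone level. Gnb5, a dark zone call by its brightest probe set (0.30), was then not among the genes tested. The beta subunit gene Gnb4 had the largest difference, 262 ± 22.5 (light) and 494 ± 16.8 (dark) (0.92, SE 0.07), and its 2 dimmer probe sets gave 0.59 and 0.96. Gnai3, another Gi alpha subunit gene, was higher in the dark zone (0.59, SE 0.09), opposite to Gnai2, although a dimmer probe set of Gnai3 gave -0.0033. The gamma subunit gene Gng12 was at 0.48 (SE 0.09). Gnaq, the alpha subunit gene of the phospholipase C pathway, was at -0.53 (SE 0.08), with 5 of 5 tested probe sets below 0. The alpha subunit gene Gna11, the other light zone call, was at -0.21 (limma adjusted p = 0.037) and passed in 11 of 19 alternatives (adjusted p = 0.0234 to 0.104). It did not pass when replicate 1, 3 or 4 of the light zone or replicate 1 or 2 of the dark zone was left out, with no filter (adjusted p = 0.0521) or after quantile normalization (adjusted p = 0.0524). Without replicate 1 of the light zone the gamma subunit gene Gng10 passed instead (-0.45, adjusted p = 0.0427).

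Arhgef1 encodes an exchange factor that acts directly downstream of the G12 family. Its brighter probe set (1421164_a_at) read 434, 512, 503 and 428 in light zone arrays and 442, 385, 407 and 421 in dark zone arrays. The ranges overlapped, since light zone replicates 1 and 4 lay among the dark zone values. The difference was -0.18 (SE 0.08, 95% interval -0.35 to -0.0047, limma adjusted p = 0.093). The second probe set (1440403_at) read 207, 193, 196 and 174 against 208, 164, 184 and 194, and gave -0.04 (SE 0.08, 95% interval -0.22 to 0.15). Arhgef1 did not pass under any of 19 alternatives (adjusted p = 0.060 to 0.23), and its interval allows a light zone excess of up to 0.35.

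Cnr2 had 1 probe set, which read 315, 222, 254 and 230 in light zone arrays and 183, 128, 144 and 145 in dark zone arrays. As for Gna12, replicate 1 was the highest in each zone. The zones did not overlap, and the difference was -0.76 (SE 0.13, limma adjusted p = 5.35e-04), a 1.70-fold higher level in the light zone and the second largest among the 9 genes. The related receptor gene Cnr1 was near the filter, at 28.9 ± 3.39 and 30.2 ± 1.92, and did not pass.

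Of 8 genes for making and degrading endocannabinoids, 6 were tested and 4 were higher in the light zone, against 23.6% of all genes tested. None was higher in the dark zone in limma, and none had an unadjusted p under 0.05 there. The hydrolase gene Abhd6 was at -1.03 (SE 0.08), the acid amidase gene Naaa at -0.35 (SE 0.06), the synthetic lipase gene Daglb at -0.32 (SE 0.08) and the hydrolase gene Abhd12 at -0.29 (SE 0.09, limma adjusted p = 0.024). A dimmer tested probe set gave -0.74 for Abhd6 and -0.07 for Naaa, and that of Naaa did not pass. Abhd12 did not pass when replicate 1, 2 or 3 of the light zone or replicate 2 or 3 of the dark zone was left out (adjusted p = 0.051 to 0.069).

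Receptor kinases and arrestins, which silence active receptors, gave 3 with a higher light zone level, 0 with a higher dark zone level and 2 that did not pass, of 5 tested, against 23.6% and 17.5% of all genes tested in those directions. With probe sets averaged the light zone count was 1 (Arrb2), as the means of Grk3 and Grk5 were then below the filter. None had an unadjusted p under 0.05 for the dark zone in limma. Grk3 was at -0.45 (SE 0.15, limma adjusted p = 0.029), Arrb2 at -0.40 (SE 0.11, limma adjusted p = 0.014) and Grk5 at -0.24 (SE 0.07, limma adjusted p = 0.014). A dimmer tested probe set of Arrb2 gave -0.91 (SE 0.09, limma adjusted p = 1.28e-05). Grk6 did not pass (-0.13), while its dimmer probe sets gave -0.29 (limma adjusted p = 0.00365) and 0.145 (limma adjusted p = 0.151). Grk3 did not pass when replicate 2 or 4 of the light zone or replicate 1 or 3 of the dark zone was left out (adjusted p = 0.076 to 0.085).

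**Figure D4:**
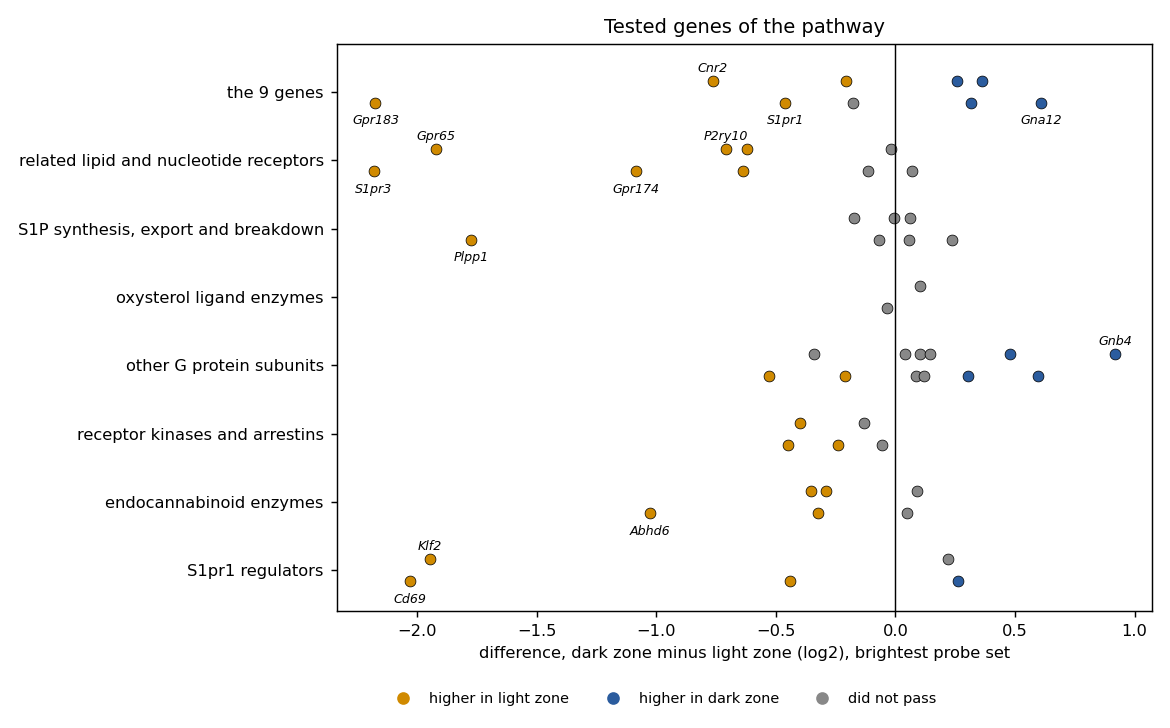
Difference between zones (dark zone minus light zone, log2) of the brightest probe set of each tested gene, for the 9 genes and 7 lists (orange: higher in the light zone; blue: higher in the dark zone; grey: did not pass; vertical offsets within a row only separate points). S1pr3 at -2.18 and Gpr183 at -2.17 lie at the left edge, and Gnb4 at 0.92 is farthest right.

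**Figure D5:**
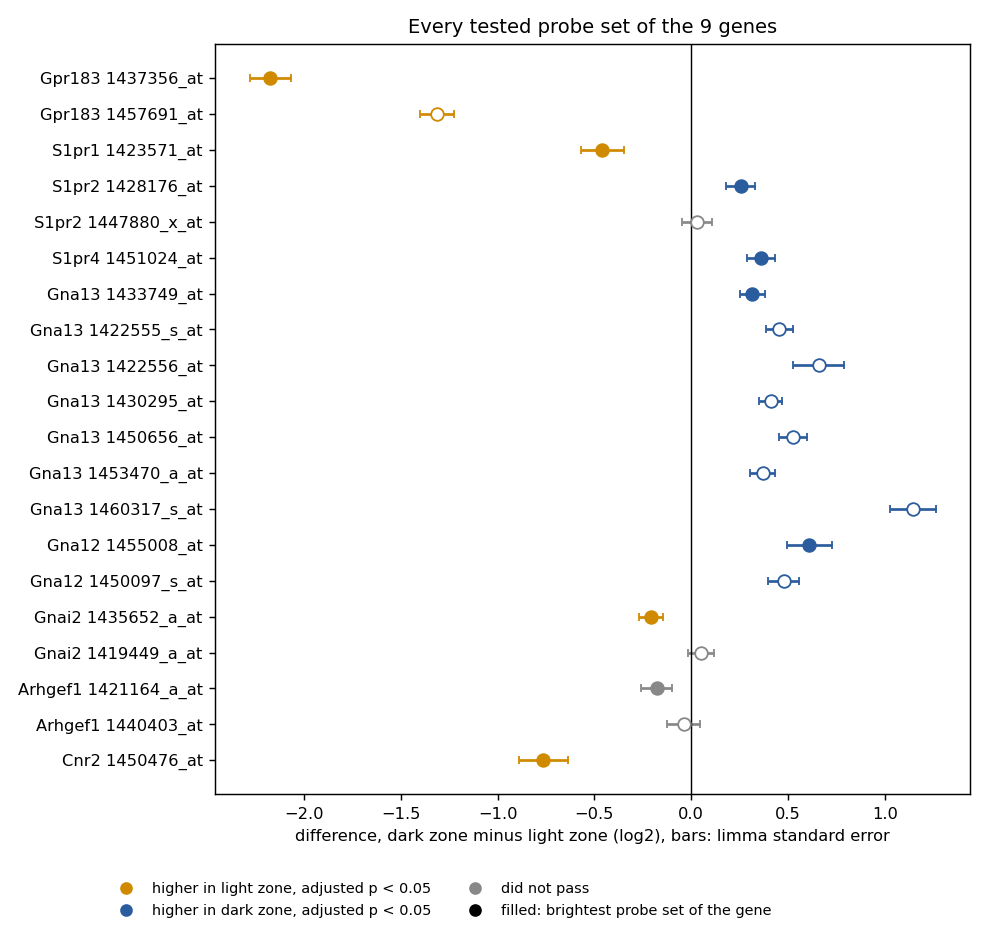
Difference between zones of all 20 tested probe sets of the 9 genes, with the limma standard error (filled: brightest probe set of a gene; orange, blue and grey as the call). The 7 probe sets of Gna13 span 0.32 to 1.15, and the paired probe sets of S1pr2 and Gnai2 fall on both sides of the threshold.

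The genes whose arrays followed a member most closely were sought for the members with the largest difference in each direction, by Pearson correlation over the 8 arrays. For Gpr183 they were the RNA host gene Gas5 (r = 0.998), the NF-kB inhibitor gene Nfkbid (r = 0.997) and the adaptor gene Samsn1 (r = 0.997), with differences of -0.69, -2.10 and -1.96. For Gna12 they were Cables2 (r = 0.988), Cnppd1 (r = 0.987) and the glutamate dehydrogenase gene Glud1 (r = 0.982), with differences of 0.24, 0.33 and 0.30. All arrays share the split by zone, so such values are common: of 10546 other genes, 1265 had r above 0.9 with Gpr183 and 369 with Gna12.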

How the data were processed

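Sorted-cell RNA was made into biotinylated cRNA for Affymetrix arrays, per the labels' protocols. The authors deposited RMA-summarised intensity, found here to be linear (RMA per the submitters' processing notes, version not given in the sources used here), of which log2 was taken with no pseudocount. RMA includes quantile normalization, so differences in the RNA content of cells are removed. Differences of dim genes are also compressed in RMA values. No detection calls were used.

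Of 45037 probe sets, 34945 (77.6%) carry 1 symbol in the platform annotation, 932 several and 9160 are unnamed here. 34741 matched a reference gene table (GRCm38.p6, used for names), which changed 0 symbols. Probe sets with a mean at or above the 50th percentile were fitted with limma 3.58.1 in R 4.3.3 (lmFit, eBayes, two-sided, Benjamini-Hochberg adjusted p under 0.05), with 4 arrays per zone and no covariate, adjusting over all 22519. A gene is read from its brightest probe set. Listed genes without such a probe set were not analysed here, and 1 pathway list is not reported here. Members and lists were chosen with earlier results of these data known. Named genes are the members, the genes of the gate, up to 4 tested genes of each pathway list with the largest differences, genes that moved against their list, and the 3 closest correlates of the members with the largest difference each way. Marker genes and the other genes named (Ch25h, Cyp7b1, S1pr5, Cnr1, Sphk1, Sgpp1, Mgll, Apom, Dnm2, Gng10, Gna11, Gng2, Gnaz, Gnb1, Gnb5) were chosen after their values were seen.

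The fit was tested on simulated data of 22519 probe sets for this comparison: of 50 changed by 0.25, 0.5, 1 and 2 (log2) each, 6%, 70%, 96% and 100% were called, and 2.86% of calls were unchanged probe sets. Only 200 probe sets were changed in the simulation, whereas 40.8% of those tested passed in the data. The adjustment was therefore stricter in the simulation, and its shares called do not carry over to the data. The alternatives changed the filter, probe set choice, normalization, log offset, variance model, threshold and arrays, and added the replicate number as a block. Figures were drawn with matplotlib 3.10.9.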

Additional observations from a re-analysis of the deposited data

Results flagged for a closer look

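Among 46 groups of 4 arrays (23 probe sets in each zone), 4 held an array whose gap to its nearest neighbour, as a share of the group's range on the log2 scale, was above Dixon's critical value; chance gives about 1 in 20 such groups. Light zone replicate 3 was low for Gpr183 (1437356_at), at 144 against 179 to 185 in the other light zone arrays (share 0.867). Light zone replicate 2 was low for Gna13 (1450656_at), at 614 against 700.4 to 709 (share 0.913). Light zone replicate 1 was high for Gna12 (1450097_s_at), at 34.97 against 30.2 to 30.7 (share 0.901). Dark zone replicate 3 was high for the dim Gna12 probe set 1450096_at, at 16.8 against 13.99 to 14.3 (share 0.881). They fall on 4 different arrays. The Gpr183 difference was -2.26 to -2.12 when single arrays were left out.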

How the results depend on the processing

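Of 19 alternatives, Gpr183, S1pr1, S1pr4, Gna13, Gna12 and Cnr2 kept their direction and their call in all 19, and Arhgef1 did not pass in any. With probe sets averaged per gene, S1pr2 (0.14) and Gnai2 (-0.078) did not pass, the Gna13 to Gna12 ratio was reversed (0.26), the S1pr2 to S1pr1 ratio passed (0.60), Sgpp1 passed at 0.26 and Mgll at -0.29 with turned sign, 16 genes of all pathway lists passed with a higher dark zone level (10 by brightest probe sets), and 4509 genes passed; with the brightest probe set of each gene alone 4629 passed, fewer than the 9182 probe sets because less was tested. The Gna12 average behind the reversed ratio took in its 3 probe sets below the filter. After quantile normalization both ratios passed (-0.32 and 0.65). At an adjusted p of 0.01, S1pr2 (0.26) and Gnai2 (-0.21) did not pass. Leaving out single arrays gave Gnai2 -0.24 to -0.19, with the call lost when light zone replicate 4 or else dark zone replicate 2 was omitted. The cause of these changes was not tested otherwise.

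With the replicate number as a replicate block Gpr183 stayed at -2.17 and no call of the 9 genes changed, while Sgpl1 (0.23, adjusted p = 0.0363), Dnm2 (0.22, adjusted p = 0.0398) and Gng10 (-0.34, adjusted p = 0.00632) passed by limma. The main fit did not pair the arrays by number. Deviations of same-numbered arrays correlated at 0.11, 0.177, 0.0805 and 0.165, and those of differently numbered arrays at -0.159 to 0.104. Dark zone replicates 1, 2 and 4 correlated best with the light zone array of their own number. Dark zone replicate 3 correlated better with light zone replicate 1 (0.104). Read from the other side, every light zone array correlated best with the dark zone array of its own number. Whether the numbers mark a pairing was not tested. Low signal limits the dim probe sets of Gna12, and 4 arrays per zone limit every comparison.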
